A study of Caenorhabditis elegans with 48 samples.

Results

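The lysosomal lipase genes *lipl-1* to *lipl-8* of *Caenorhabditis elegans* were followed through L1 arrest, the developmental arrest that newly hatched larvae enter when they find no food. The 8 genes were taken by name, matched to gene identifiers in the annotation, and all 8 were among the 15549 protein-coding genes that passed the filter on low counts. mRNA-seq libraries came from whole larvae, with 4 strains sampled after 36 h without food and again at 132 h, when they had spent 96 h in either auxin or its solvent ethanol, and each of the 12 groups had 4 replicates. *Peft-3::TIR1; ama-1::AID* (somatic degron strain) and *Pgld-1::TIR1; ama-1::AID* (germline degron strain) carry an auxin-inducible degron with 3 FLAG tags at the end of endogenous *ama-1*, which encodes the large subunit of RNA polymerase II, whereas *Pgld-1::TIR1* and *Peft-3::TIR1* carry TIR1 alone. TIR1, the plant F-box protein that auxin joins to the degron, was driven by the *eft-3* promoter in the soma or by the *gld-1* promoter in the germline. Auxin was given at 100 μM from 36 h onward. Each library pooled the larvae of a culture, the somatic degron strain is known to grow more slowly, and some loss of tagged AMA-1 without auxin is possible in it.

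Proteins of this family are related to mammalian lysosomal acid lipase, which cuts triglycerides and cholesterol esters inside the lysosome so that fatty acids can leave it for oxidation or signaling. In fed worms the repressor MXL-3 holds several lysosomal lipase genes down, and on fasting HLH-30, the worm relative of TFEB, turns them on together with autophagy genes. *lipl-4* is best known for extending lifespan when it is overexpressed in the intestine, the main fat store of the worm. *lipl-1* and *lipl-3* are known as targets of this fasting switch, and *lipl-5* as a fasting-responsive lysosomal lipase.

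Libraries held 5755041 to 18052333 counts on genes (median 11040338). ERCC spike-ins, added in proportion to total RNA, took 1.13% to 8.33% of gene and spike-in counts. Auxin replicate 4 of the somatic degron strain stood apart, with the highest spike-in share of the 48 libraries (8.33%, against at most 6.41% in the others), germline markers summing to 1082 CPM, against 47.6 to 603 in the others, and oocyte and eggshell markers summing to 747 CPM, against 5.97 to 227. The auxin comparison of the somatic degron strain is given with and without it. *Pgld-1::TIR1* ethanol replicate 4, at 6.41%, had the highest spike-in share of its group (1.69% to 2.09% in the other 3). CPM are counts scaled to the library's total on protein-coding genes, so they are shares of the mRNA pool. In libraries made from whole larvae, fewer cells of a type and less RNA per cell cannot be told apart.

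Of the 8 genes, 7 lie on chromosome V and *lipl-7* on chromosome IV (WBcel235). *lipl-2* spans V 9791567 to 9793241 on the plus strand with 5 exons, and *lipl-5* spans V 385746 to 387740 on the plus strand with 6 exons. *lipl-1* (V 12919986 to 12921692, plus strand, 5 exons) had over 10 counts in 23 of the 48 libraries and *lipl-7* (IV 10239278 to 10241823, minus strand, 6 exons) in all 48. *lipl-3* (V 521595 to 524218, minus strand), *lipl-4* (V 6550171 to 6552186, plus strand), *lipl-6* (V 6931475 to 6934312, minus strand) and *lipl-8* (V 14745684 to 14748708, minus strand) had over 10 counts in 5 to 15 libraries. The closest pair, *lipl-3* and *lipl-5*, is 133.855 kb apart, so the family is not an array of adjacent copies. *lipl-3* shares 23 exonic bases with *srw-107* on the same strand. *lipl-4* shares 120 exonic bases with the noncoding RNA K04A8.15 and 82 with a tRNA gene, both on the opposite strand. Whether the counting used strand is not given in the sources used here, so low counts on *lipl-3* and *lipl-4* are uncertain.

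At 36 h of arrest *lipl-5* was the dominant lysosomal lipase transcript and *lipl-2* the next. Per kilobase of merged exons, the 8 genes together reached a mean of 328 ± 53.9 CPM per kb in the somatic degron strain (SD, n = 4), 345 ± 36.3 in the germline degron strain, 318 ± 36.6 in *Pgld-1::TIR1* and 313 ± 32.4 in *Peft-3::TIR1*. *lipl-5* made up 71.2% to 75.8% of that sum across the strains and *lipl-2* 20.3% to 24.1%. At 132 h with ethanol the sum was 22.1 ± 3.71 CPM per kb in the somatic degron strain, 17.2 ± 1.26 in the germline degron strain, 19.8 ± 3.86 in *Pgld-1::TIR1* and 15.3 ± 1.59 in *Peft-3::TIR1*. The family sums of the 36 h and 132 h libraries did not overlap in any strain. *lipl-7* then held 39.7% to 51.0% of the sum and *lipl-5* 30.7% to 45.2%.

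**Figure D1:**
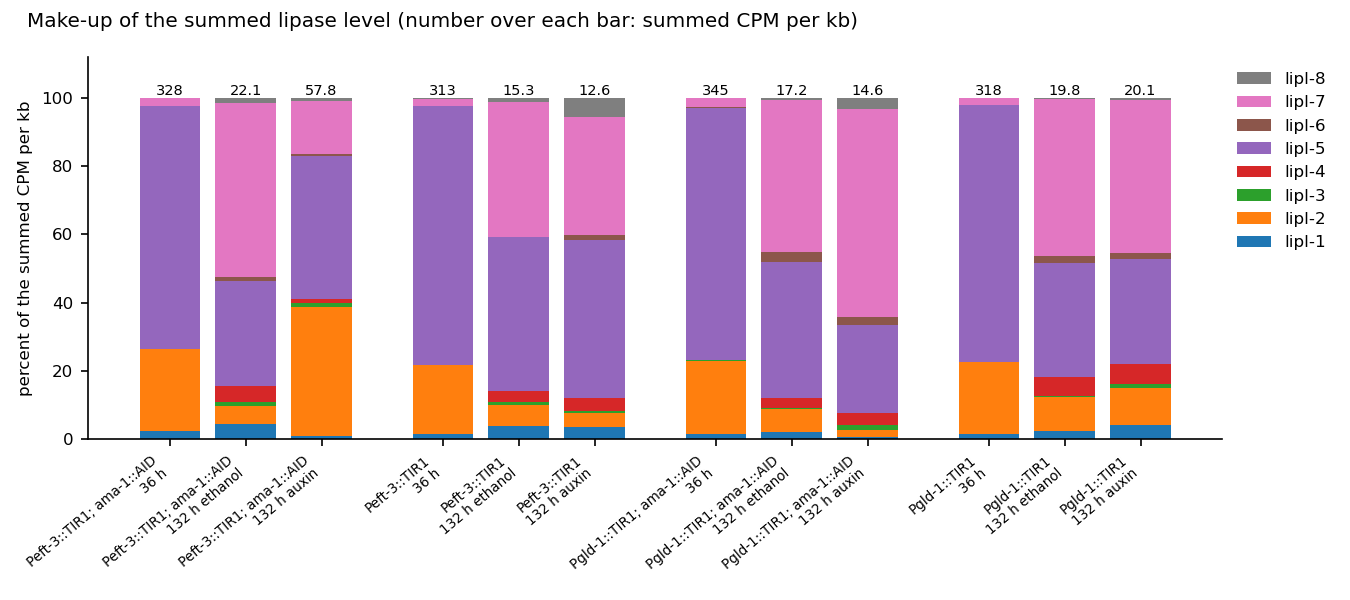
Percent of the summed CPM per kb taken by each of the 8 lipl genes (stacked bars, means of 4 libraries) in each strain and condition, with the summed CPM per kb written over each bar. lipl-5 fills 71.2% to 75.8% of the bars of 36 h, lipl-7 39.7% to 51.0% of those of 132 h with ethanol, and lipl-2 37.8% of the bar of the somatic degron strain with auxin.

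The first question was how the family moved as arrest went on, from 36 h to 132 h in ethanol. The 36 h libraries were collected before ethanol was added. Time and 96 h in ethanol can thus not be told apart in these comparisons, called comparisons with time below. *lipl-1*, *lipl-2* and *lipl-5* fell in all 4 strains, and no other member fell in all 4. *lipl-5* was at 306, 358, 236 and 279 CPM in replicates 1 to 4 of the somatic degron strain at 36 h and at 5.41, 7.26, 15.9 and 5.67 CPM at 132 h with ethanol. In *Peft-3::TIR1* it was at 350, 284, 299 and 266 CPM and then at 6.12, 11.2, 8.62 and 8.92 CPM. Every 36 h library was far above every 132 h library in both strains. In the germline degron strain *lipl-5* went from 370, 300.3, 285 and 335 CPM to 5.26, 8.66, 11.1 and 9.44 CPM. In *Pgld-1::TIR1* it went from 343, 297, 261 and 308 CPM to 6.66, 4.46, 12.7 and 9.73 CPM. The 16 libraries of 36 h thus lay between 236 and 370 CPM and the 16 of 132 h with ethanol between 4.46 and 15.9 CPM. The ratio of mean CPM was 34.4-fold in *Peft-3::TIR1*, 34.5-fold in the somatic degron strain, 36.0-fold in *Pgld-1::TIR1* and 37.4-fold in the germline degron strain. In the model, the log2 fold changes were -5.17 ± 0.32 in the somatic degron strain (standard error, adjusted p = 1.37e-17) and -5.38 to -5.60 in the other strains. Without replicate 3, whose ethanol library was the highest, it was -5.86 in the somatic degron strain.

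*lipl-2* fell from a level below that of *lipl-5* per kilobase to a few counts. In the somatic degron strain it was at 114, 115, 96.7 and 77.8 CPM at 36 h and at 1.62, 0.121, 2.20 and 2.04 CPM at 132 h with ethanol. In *Peft-3::TIR1* it was at 78.6, 79.9, 91.5 and 74.1 CPM and then at 1.66, 0.197, 1.59 and 1.21 CPM. The low values, among them 0.121 and 0.197 CPM in replicate 2 of both strains, rest on few reads, with 1 to 29 counts per library. In the germline degron strain *lipl-2* went from 97.9, 90.5, 83.7 and 106 CPM to 2.78, 0.234, 2.36 and 0.661 CPM. In *Pgld-1::TIR1* it went from 93.8, 105, 68.1 and 72.2 CPM to 1.77, 1.83, 1.47 and 5.19 CPM. Again the groups did not overlap in any strain, with 68.1 to 115 CPM over all libraries of 36 h and 0.121 to 5.19 CPM over those of 132 h with ethanol. Mean CPM fell 67.5-fold in the somatic degron strain, 62.6-fold in the germline degron strain, 69.7-fold in *Peft-3::TIR1* and 33-fold in *Pgld-1::TIR1*. The last value rests on ethanol replicate 4 (5.19 CPM, against at most 1.83 CPM), the library of that group with the high spike-in share, and was 50.1-fold without it. The log2 fold change was -6.09 ± 0.50 in the somatic degron strain (adjusted p = 9.96e-14) and between -5.43 and -6.36 in the others, of which -5.43 in *Pgld-1::TIR1* was -6.21 ± 0.57 without that library (adjusted p = 3.3e-12).

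*lipl-1* was a far lower transcript that moved the same way. It was at 13.4, 14.3, 3.71 and 6.95 CPM in the somatic degron strain at 36 h, against 2.42, 0.605, 0.531 and 1.59 CPM at 132 h with ethanol. Over all strains it lay between 2.38 and 14.3 CPM at 36 h and between 0 and 2.42 CPM at 132 h with ethanol, where 4 of 16 libraries had no count. The groups did not overlap within any strain, although the lowest 36 h library of the series (2.38 CPM) was just under the highest of 132 h (2.42 CPM). The log2 fold change was -3.19 ± 0.98 in the somatic degron strain (adjusted p = 0.0102), -4.40 ± 1.1 in the germline degron strain (adjusted p = 0.00125), -3.37 ± 0.99 in *Peft-3::TIR1* (adjusted p = 0.0047) and -3.85 ± 0.97 in *Pgld-1::TIR1* (adjusted p = 0.00121). Without replicate 2, the fall in the somatic degron strain was -2.57 with an adjusted p of 0.0888 and was no longer called. It was -4.18 in *Peft-3::TIR1* without replicate 3 and -4.79 in *Pgld-1::TIR1* without replicate 4, both still called.

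**Figure D2:**
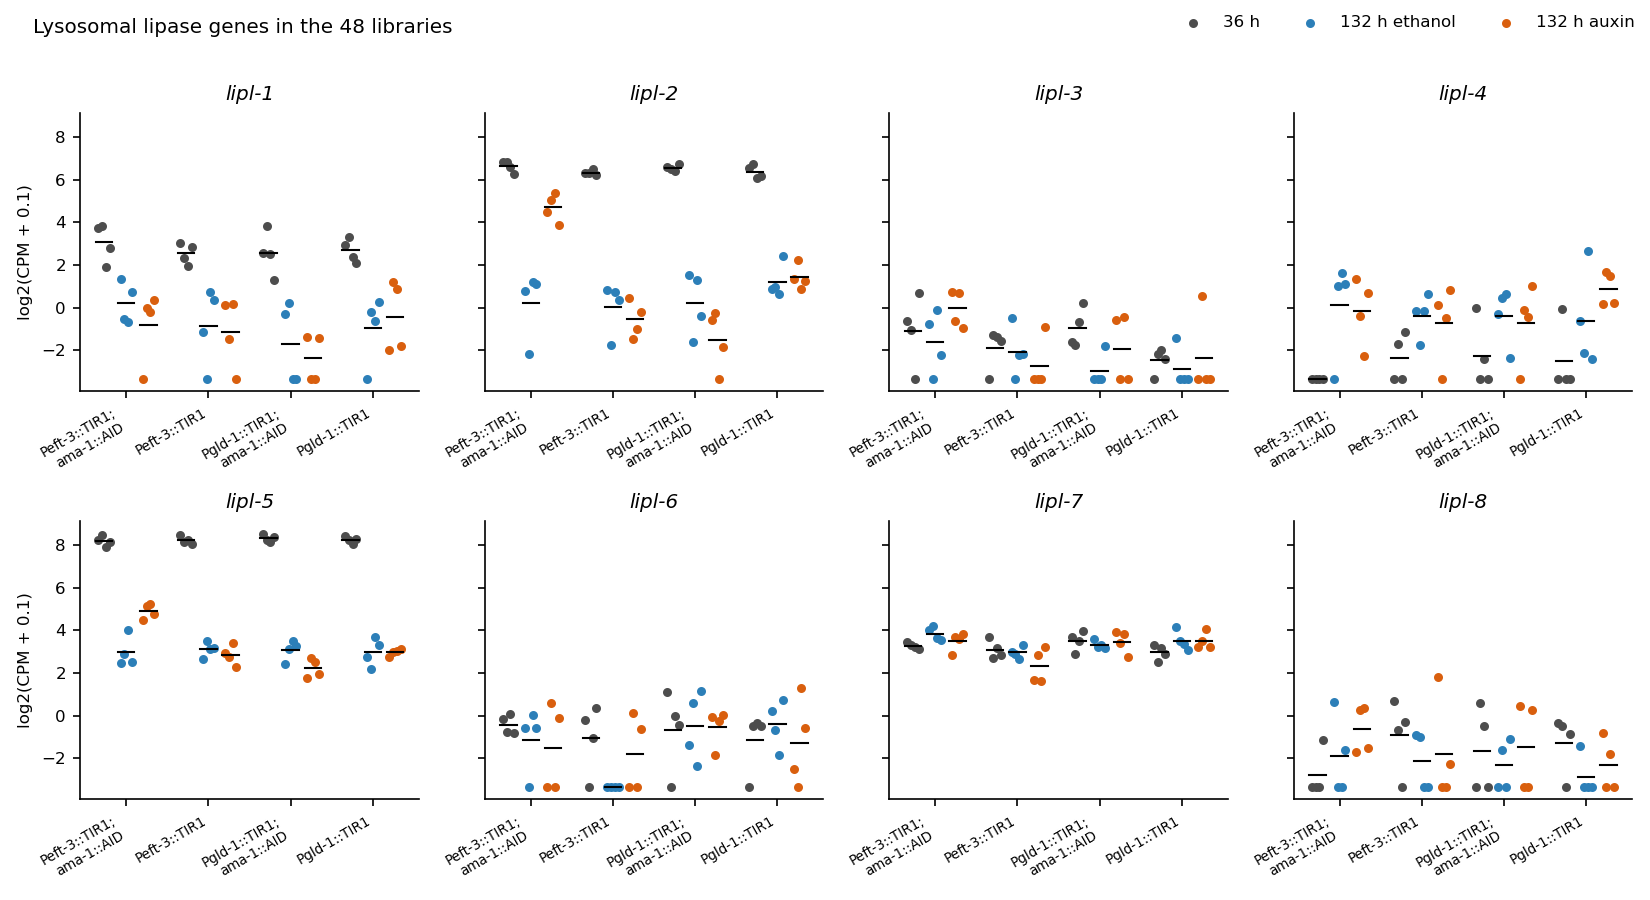
Level of each lipl gene as log2(CPM + 0.1) (y axis, 1 panel a gene) in the 48 libraries, by strain (x axis) and condition (color). Points are single libraries and black lines are means of 4, and points on the lowest level are libraries with no count. lipl-2 and lipl-5 are high in the 16 libraries of 36 h (68.1 to 115 and 236 to 370 CPM) and low at 132 h, except in the somatic degron strain with auxin.

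Among all genes tested, 15.1% fell between 36 h and 132 h with ethanol in the somatic degron strain and 15.2% rose. In the germline degron strain 17.1% fell and 17% rose, in *Peft-3::TIR1* 23.9% fell and 20.5% rose, and in *Pgld-1::TIR1* 19.4% fell and 18.8% rose. A fall in all 4 strains was called for 11.9% of genes, against 3 of the 8 lipases. The other 2 calls of the family were single-strain calls at low counts. *lipl-4* rose in the somatic degron strain, from 0 counts in all 4 libraries of 36 h to 0, 1.94, 3.04 and 2.04 CPM, which is at least 26.4-fold over a floor of 3 counts for the group (adjusted p = 0.015). Replicate 1 was at 0 at both times, and without replicate 3 the adjusted p was 0.138. The fitted log2 fold change of 6.68, which depends on the prior count, was 5.54 without replicate 3 and 8.12 without replicate 4. *lipl-6* fell in *Peft-3::TIR1* from 0.768, 0, 0.384 and 1.19 CPM to 0 in all 4 libraries, at least 7.65-fold by the same floor (adjusted p = 0.0121), and missed the threshold without replicate 1 (0.0666) or without replicate 4 (0.0699). The median log2 change of the 8 members was -0.59 in the somatic degron strain, -2.94 in the germline degron strain, -3.12 in *Peft-3::TIR1* (-2.91 with *lipl-6* at its bound) and -2.24 in *Pgld-1::TIR1*, against -0.01, -0.0024, -0.11 and -0.0082 over all genes tested. In every strain the low-count genes *lipl-3*, *lipl-6* or *lipl-8* lay in the middle of the members and helped set this median.

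Scaling to spike-ins instead of to protein-coding counts raised the median of all genes between 36 h and 132 h with ethanol to 0.85 on the log2 scale in the somatic degron strain, 0.78 in the germline degron strain, 0.46 in *Pgld-1::TIR1* and 0.84 in *Peft-3::TIR1*. The value of *Pgld-1::TIR1* includes ethanol replicate 4, whose spike-in share was 6.41%, against 1.69% to 2.09% in the rest of its group. The study reports less total RNA from equal numbers of larvae at the later time, and proposes that mRNA declined along with it. Spike-ins were added in proportion to total RNA, so this scale does not give amounts per larva, and change per larva was not tested. The falls of *lipl-1*, *lipl-2* and *lipl-5* were called in all 4 strains on this scale too. In the somatic degron strain *lipl-5* changed by -4.52 and *lipl-2* by -5.49 (adjusted p = 5.94e-14 and 8.21e-12), and *lipl-1* by -2.35 (adjusted p = 0.0399). Marker sums moved with time too. In this strain 8 intestinal markers summed to 2259 to 2636 CPM at 36 h and 984 to 1417 CPM with ethanol, with 3 called lower and 3 higher. Intestinal sums fell without overlap in the other strains as well. The 7 germline markers summed to 91.4 to 149 and 188 to 316 CPM in this strain. The part of these shifts in the lipase falls was not tested.

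The second question was what depletion of AMA-1 in the soma did to these transcripts at 132 h. In the somatic degron strain, *lipl-2* and *lipl-5* were higher with auxin than with ethanol, and none of the other 6 members was called. These are relative levels. The study considers an absolute rise unlikely for genes that are higher after AMA-1 degradation. *ama-1* mRNA itself is not a readout of the depletion, which acts on the protein. It was at 1023 to 1347 CPM with auxin and 290 to 636 CPM with ethanol.

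*lipl-2* was at 22.1, 33.3, 41.3 and 14.8 CPM with auxin, against 1.62, 0.121, 2.20 and 2.04 CPM with ethanol. All 4 auxin libraries were above all 4 ethanol libraries, and also above the other 24 libraries of 132 h, which reached at most 5.19 CPM. Mean CPM was 18.7-fold higher, with a log2 fold change of 3.78 ± 0.53 (adjusted p = 2.42e-07). Without auxin replicate 4, the library that stood apart, it was 3.89 (adjusted p = 3.15e-08). *lipl-5* was at 22.4, 35.3, 37.6 and 26.9 CPM with auxin, against 5.41, 7.26, 15.9 and 5.67 CPM with ethanol. The groups did not overlap, and the highest ethanol library, replicate 3, was nearest. Mean CPM was 3.57-fold higher, with a log2 fold change of 1.43 ± 0.33 (adjusted p = 0.000757), which was 1.51 without auxin replicate 4 (adjusted p = 0.000362) and 2.07 without ethanol replicate 3 (adjusted p = 2.48e-06). Higher levels were called for 13.3% of all genes tested and lower levels for 16.1%, against 2 and 0 of the 8 lipases. The median log2 fold change was 0.56 over the lipases and 0.11 over all genes, and the first was set by *lipl-3* and *lipl-4*, which had low counts and were not called. Fitted only with the libraries compared and W1, the covariate drawn from the spike-ins, neither gene was called (*lipl-2* 4.12, adjusted p = 0.0567, and *lipl-5* 1.50, adjusted p = 0.332).

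Auxin also moved library measures in this strain. The spike-in share was 4.87% ± 2.45 with auxin and 1.91% ± 0.39 with ethanol (SD, n = 4, exact two-sided permutation p = 0.0286, adjusted p = 0.0914 over 16 tests), and 0.0286 is the smallest p that 4 libraries against 4 allow. Without auxin replicate 4 it was 3.72% ± 1.03 (n = 3). W1 was 0.226 ± 0.101 with auxin and -0.100 ± 0.076 with ethanol (SD, n = 4, exact two-sided permutation p = 0.0286, adjusted p = 0.0914 over 16 tests). The 7 germline markers summed to 357 to 1082 CPM with auxin and 188 to 316 CPM with ethanol, and 5 of the 7 were called higher, or 3 of the 7 without auxin replicate 4 (357 to 603 CPM). Of 7 oocyte and eggshell markers 6 were tested, of which 2 were higher with and without that library, with sums of 95.9 to 747 (95.9 to 227 without it) and 38.3 to 72.1 CPM. Muscle markers summed to 1124 to 2083 CPM with auxin and 2139 to 2730 CPM with ethanol, and 4 of 5 were lower and 1 higher. The 8 intestinal markers summed to 352 to 608 CPM with auxin and 984 to 1417 CPM with ethanol, and 2 of them, *act-5* and *elt-2*, were lower and none higher. The median log2 fold change of the 8 was -0.02, against 0.11 over all genes, and *act-5*, an intestinal actin, carried the difference in the sums, at a mean of 66.3 CPM with auxin and 859 CPM with ethanol. Every intestinal marker had counts in both groups. Neuronal and hypodermal markers overlapped between the groups and none was called, yolk protein genes summed to 8.97 to 47.2 CPM with auxin and 2.30 to 7.67 CPM with ethanol with none called, and sperm genes, of which 2 of 7 were tested and 1 was higher, summed to 7.31 to 11.9 and 0 to 1.45 CPM. The part of these shifts in the lipase result was not tested.

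On the spike-in scale, which sets counts against a fixed amount of total RNA, the median of all genes was at -1.25 in this comparison, and 416 genes (2.68%) were called higher and 8147 (52.4%) lower. *lipl-2* was at 41.9, 87.5, 82.0 and 15.5 counts per 100000 spike-in counts with auxin and at 6.03, 0.567, 11.2 and 12.8 with ethanol. These groups still did not overlap, although auxin replicate 4 was only just above the highest ethanol library and below the highest of the other strains (26.3, in *Pgld-1::TIR1* with auxin). The mean was 7.42-fold higher, and the log2 fold change of 2.89 was called (adjusted p = 7e-06). *lipl-5* was at 42.5, 92.7, 74.7 and 28.1 with auxin and at 20.2, 34, 80.6 and 35.5 with ethanol. Here the groups overlapped, and 0.47 on the log2 scale was not called (adjusted p = 0.279). *lipl-7* was at 13.6, 34, 23.9 and 14.7 with auxin and 60, 85.1, 62.9 and 73.9 with ethanol, with no overlap, and was called lower at -1.71 (adjusted p = 0.00185), as was *lipl-1* at -2.26 (adjusted p = 0.0402). Without auxin replicate 4 the change was 3.21 for *lipl-2* (adjusted p = 1.11e-06), 0.71 for *lipl-5* (adjusted p = 0.119) and -1.57 for *lipl-7* (adjusted p = 0.0105), and *lipl-1* was no longer called (adjusted p = 0.0753). *lipl-2* was thus the only member called higher with auxin on both scales, with and without that library.

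**Figure D3:**
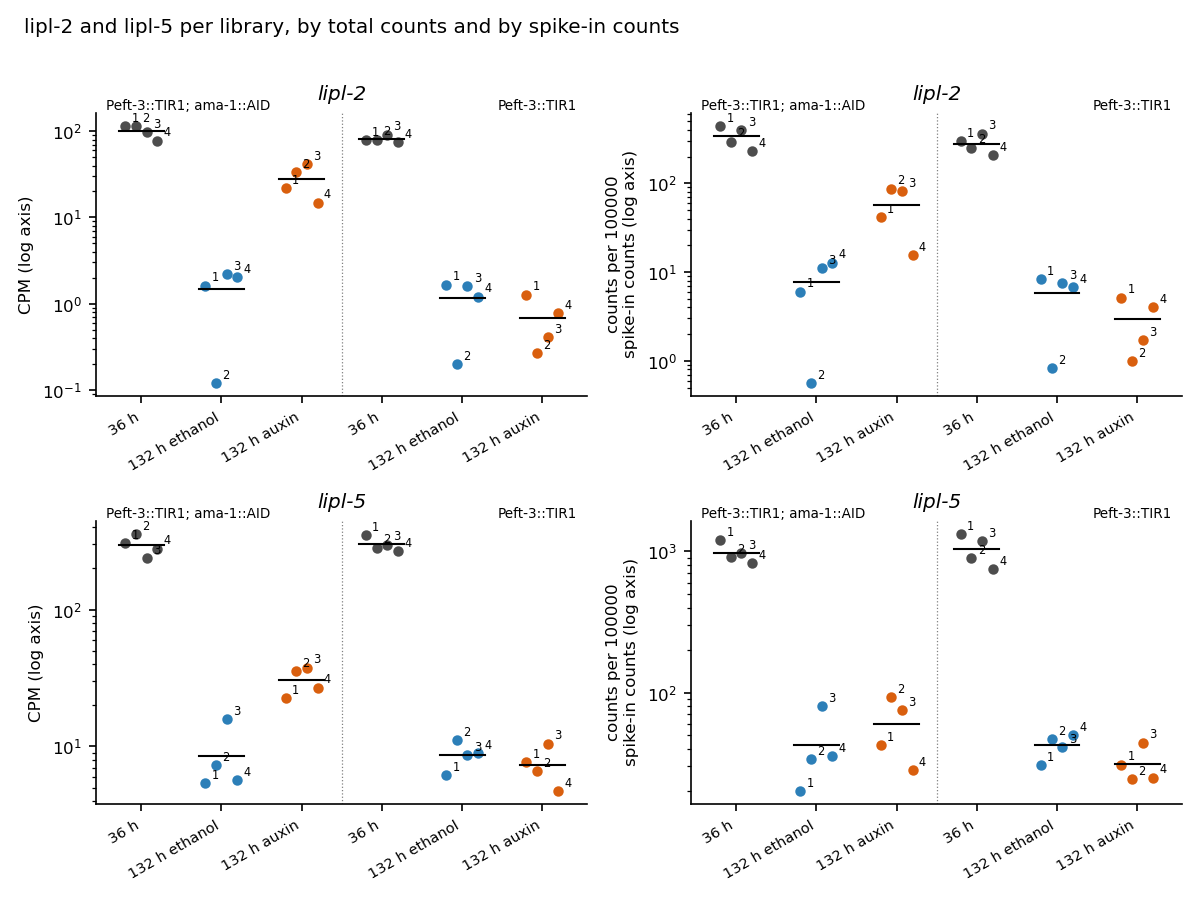
lipl-2 (top) and lipl-5 (bottom) in each library of the somatic degron strain and of Peft-3::TIR1, in CPM (left) and in counts per 100000 spike-in counts (right), on log axes. Points are libraries with their replicate number and black lines are means of 4. In the somatic degron strain lipl-2 with auxin lies above ethanol on both scales, at 14.8 to 41.3 CPM and at 15.5 to 87.5 per 100000 spike-in counts, and lipl-5 overlaps ethanol on the spike-in scale.

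In the other 3 strains *lipl-2* and *lipl-5* were low with auxin too. *lipl-2* was at 1.27, 0.268, 0.407 and 0.772 CPM with auxin in *Peft-3::TIR1*, at 0.568, 0.732, 0 and 0.182 CPM in the germline degron strain and at 2.44, 4.62, 1.72 and 2.32 CPM in *Pgld-1::TIR1*. *lipl-5* was at 7.63, 6.62, 10.5 and 4.74 CPM with auxin in *Peft-3::TIR1*, at 3.27, 6.49, 5.59 and 3.74 CPM in the germline degron strain and at 6.61, 7.76, 8.10 and 8.72 CPM in *Pgld-1::TIR1*. All of these ranges overlapped those with ethanol. No member was called by edgeR's quasi-likelihood test in any of the 3 strains, where 0.0% of all genes were called, and DESeq2 and the likelihood ratio test called 0 members there too. At an unadjusted threshold of 0.05, the germline degron strain had 2 members, *lipl-2* at -2.01 ± 0.70 and *lipl-5* at -0.86 ± 0.30, *Peft-3::TIR1* had 1, *lipl-6*, and *Pgld-1::TIR1* had 0.

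The difference between strains was tested directly. The effect of auxin on *lipl-2* was larger in the somatic degron strain than in *Peft-3::TIR1* by 4.68 ± 0.84 on the log2 scale (adjusted p = 3.52e-05), and that on *lipl-5* by 1.71 ± 0.44 (adjusted p = 0.00324). By the quasi-likelihood test this interaction was higher for 8.31% and lower for 12.5% of all genes, against 2 and 0 of the lipases. *lipl-6* was at -5.14 ± 2.18 and was not called (adjusted p = 0.0902). It was called lower by the likelihood ratio test (adjusted p = 0.0398). On the spike-in scale it was called too (-6.40, adjusted p = 0.0385), though not without auxin replicate 4 (adjusted p = 0.0612). In *Peft-3::TIR1*, *lipl-6* had 0 counts with ethanol and 16 with auxin, at least 5.55-fold over a floor of 3 counts. The size of -5.14 therefore depends on the prior count. In the somatic degron strain *lipl-6* had 24 counts with ethanol and 23 with auxin and changed by -0.33, not called. For *lipl-5* the difference was 2.43 without replicate 3, and the call was lost without replicate 2 (adjusted p = 0.093), without replicate 4 (adjusted p = 0.0586) and on the spike-in scale (0.91, adjusted p = 0.187), whereas *lipl-2* stayed at 3.93 on the spike-in scale (adjusted p = 0.000152). Between the germline degron strain and *Pgld-1::TIR1*, 0.0% of genes and no member was called by the quasi-likelihood test, DESeq2 or the likelihood ratio test. There, *lipl-2* (-2.26 ± 0.86) and *lipl-5* (-0.91 ± 0.43) were the 2 members past an unadjusted threshold of 0.05.

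Auxin was added at 36 h, and *lipl-2* and *lipl-5* in the somatic degron strain with auxin were also below their own 36 h levels. The auxin libraries of *lipl-2* (14.8 to 41.3 CPM) lay between those of 36 h (77.8 to 115 CPM) and of ethanol, with a log2 fold change of -2.32 ± 0.39 against 36 h (adjusted p = 2.5e-06). *lipl-5* lay 9.64-fold below its 36 h mean, at -3.74 ± 0.28 (adjusted p = 6.07e-15). *lipl-1*, at 0, 0.886, 0.765 and 1.17 CPM with auxin, was also lower than at 36 h, by -4.18 ± 0.98 (adjusted p = 0.000436), and by -3.59 without replicate 1, which had no count with auxin. *lipl-4* was the only member higher than at 36 h, at 2.49, 0.664, 0.109 and 1.51 CPM against 0 counts, or at least 18.7-fold (adjusted p = 0.0073), and this call was lost without replicate 4 (adjusted p = 0.0583). Among all genes 24.2% were lower and 23.8% higher in this comparison, which uses the same auxin and 36 h libraries as those above. Per kilobase, the family sum with auxin was 57.8 ± 15.2 CPM per kb, of which *lipl-5* held 41.9%, *lipl-2* 37.8% and *lipl-7* 15.4%.

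**Figure D4:**
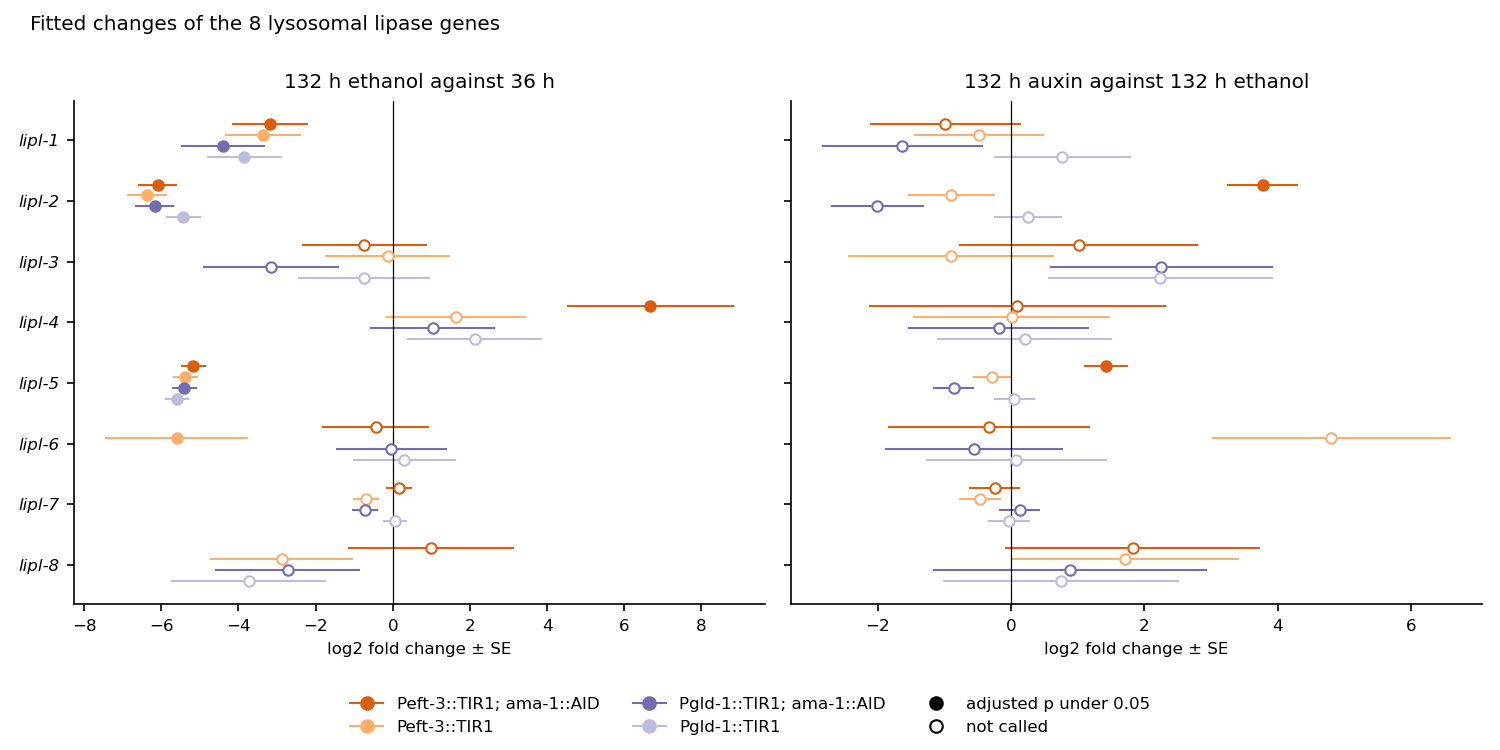
Log2 fold change (x axis, bars are standard errors) of each lipl gene at 132 h with ethanol against 36 h (left) and for auxin against ethanol at 132 h (right), by strain (color). Filled points have an adjusted p under 0.05. lipl-1, lipl-2 and lipl-5 are lower at 132 h with ethanol than at 36 h in all 4 strains. lipl-2 (3.78) and lipl-5 (1.43) are higher with auxin in the somatic degron strain.

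*lipl-7* did not follow the leading lipases. It was at 10.9, 9.89, 9.23 and 8.72 CPM in the somatic degron strain at 36 h, at 16.1, 18.1, 12.4 and 11.8 CPM with ethanol and at 7.15, 13, 12 and 14.1 CPM with auxin. Over all libraries it stayed between 5.71 and 15.8 CPM at 36 h and between 6.13 and 18.1 CPM at 132 h with ethanol. It was called in none of the 4 comparisons with time and in none of the 4 with auxin on the CPM scale. The fitted log2 change with time was 0.16 ± 0.34 in the somatic degron strain and 0.05 ± 0.32 in *Pgld-1::TIR1*. In the germline degron strain it was -0.73 ± 0.34 and in *Peft-3::TIR1* -0.69 ± 0.33, both past an unadjusted threshold of 0.05. On the spike-in scale these 2 strains were at 0.15 and 0.34, not called. Its groups neighboured in order of level all overlapped, from a mean of 14.6 ± 3.03 CPM in the somatic degron strain with ethanol down to 5.63 ± 3.14 CPM in *Peft-3::TIR1* with auxin. Within the somatic degron strain, however, the 36 h libraries (8.72 to 10.9 CPM) and the ethanol libraries (11.8 to 18.1 CPM) did not overlap. The ethanol mean was 1.51-fold higher. On the spike-in scale it was 2.14-fold higher, again without overlap, and was not called (adjusted p = 0.0604).

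The tag could act without auxin, so the somatic degron strain was set against *Peft-3::TIR1*. At 36 h no member was called by the quasi-likelihood test, DESeq2 or the likelihood ratio test, 0 were past an unadjusted threshold of 0.05, and 0.167% of all genes were higher and 0.0579% lower. At 132 h with ethanol *lipl-7* was higher in the degron strain by 0.97 ± 0.31 (adjusted p = 0.032), with 11.8 to 18.1 CPM against 6.13 to 9.89 CPM and no overlap. *lipl-6* was higher too, at 0.565, 0, 0.911 and 0.567 CPM against 0 in all 4 libraries, at least 7.26-fold (adjusted p = 0.0416). Among all genes 6.63% were higher and 5.9% lower. Neither lipase was called without replicate 1, 2 or 3 or on the spike-in scale. *lipl-2* and *lipl-5*, at 0.51 ± 0.55 and 0.10 ± 0.29 at 132 h with ethanol, were not called.

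*lipl-3*, *lipl-6* and *lipl-8* had more than 10 counts in 5, 10 and 5 of the 48 libraries, and *lipl-4* in 15. *lipl-3* reached at most 1.55 CPM, and *lipl-6* at most 2.38 CPM. *lipl-8* reached at most 3.39 CPM, in a single *Peft-3::TIR1* library with auxin. *lipl-4* had no count in 11 of the 16 libraries of 36 h and reached 6.27 CPM in 1 library of *Pgld-1::TIR1* with ethanol. It had more than 10 counts in 0 libraries of 36 h, 7 of 132 h with ethanol and 8 of 132 h with auxin. For these 4 genes the fits carried standard errors of 1.31 to 2.23 log2 units in the comparisons of auxin with ethanol.

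Other genes of fat mobilization were taken from a list of 48, of which 47 were tested. Between 36 h and 132 h with ethanol, 14 rose and 11 fell in all 4 strains, which was the case for 10.7% and 11.9% of all genes. Among regulators, *mxl-3*, the repressor of lipase genes, rose by 4.11 to 5.12 log2 units across strains, from 7.74 ± 3.93 to 362 ± 89.8 CPM in the somatic degron strain. *hlh-30*, the activator, was at 503 ± 32.5 and 556 ± 45.3 CPM there and was not called. *mml-1*, a Myc-like factor (-1.03 to -1.56 across strains), *daf-16* (FoxO, -0.60 to -1.09), the Mediator subunit gene *mdt-15* (-0.68 to -1.23) and *sbp-1* (SREBP, -0.43 to -1.06) fell, of which *daf-16*, *mdt-15* and *sbp-1* turned sign on the spike-in scale in both degron strains.

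Lipolysis genes of the lipid droplet split. *atgl-1*, the worm adipose triglyceride lipase, changed by -1.86 to -2.46 log2 units and *fil-1*, a fasting-induced lipase, by -5.74 to -9.20, while *plin-1*, the perilipin that coats the droplet, rose by 2.66 to 2.95. Among lysosomal genes, the aspartic proteases *asp-1* and *asp-3* changed by -6.05 to -6.47 and by -4.0 to -4.80, the lysosomal DNase gene *nuc-1* by -4.39 to -5.25, the lysosomal membrane protein gene *lmp-2* by -1.66 to -2.65 and the cholesterol transporter gene *ncr-2* by -1.92 to -2.86. The carriers *lbp-3*, *lbp-5* and *lbp-6*, which bind fatty acids, rose by 1.56 to 2.79, 2.42 to 3.26 and 2.30 to 2.90.

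Of 15 genes of fatty acid activation and oxidation, 9 rose in all 4 strains and none fell in all 4, although *maoc-1*, a peroxisomal hydratase gene, was called lower in 3 strains (-1.70 to -1.84, not in the somatic degron strain). *acs-2*, a mitochondrial acyl-CoA synthetase, went from 0.662 ± 0.791 to 1245 ± 260 CPM in the somatic degron strain and rose by 9.05 to 10.3 log2 units across strains. *hacd-1*, a hydroxyacyl-CoA dehydrogenase, rose by 6.59 to 7.01. The carnitine palmitoyltransferase genes *cpt-1*, *cpt-2*, *cpt-3* and *cpt-5* rose by 0.94 to 1.14, 0.63 to 0.91, 4.16 to 6.19 and 4.43 to 7.15, the thiolase gene *kat-1* by 1.08 to 1.48, and the peroxisomal genes *acox-1.1* and *daf-22* by 1.44 to 1.97 and 1.18 to 1.54.

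With auxin in the somatic degron strain, 10 of the 47 were higher and 22 lower than with ethanol, with a median log2 fold change of -0.60 against 0.11 over all genes, of which 13.3% were higher and 16.1% lower. Without auxin replicate 4, 9 were higher and 22 lower. *mxl-3* was lower by 5.15 ± 0.39, at 9.17 ± 5.16 CPM (adjusted p = 1.96e-14). Also lower among regulators were *nhr-80* (-1.27), *nhr-62* (-1.51) and *sbp-1* (-0.46), and *mml-1* (0.71) and *mxl-2* (0.45) were higher. *hlh-30* was at 463 ± 86.3 CPM with auxin and was not called (adjusted p = 0.0963). Of 6 droplet genes, *atgl-1* (1.22) and *fil-1* (4.42) were higher and *plin-1* (-1.94) lower. Of 16 lysosomal and carrier genes tested, 6 were higher, namely *asp-1* (3.57), *asp-3* (1.85), *nuc-1* (1.19), *ncr-1* (1.31), *ncr-2* (2.39) and *lbp-9* (1.86). The 8 that were lower were *lbp-1* (-1.47), *lbp-2* (-2.78), *lbp-3* (-4.13), *lbp-5* (-3.13), *lbp-6* (-3.48), *lbp-7* (-2.32), *asp-4* (-1.39) and *lmp-1* (-0.57). Of 15 oxidation genes none was higher and 9 were lower, from *kat-1* (-0.89), *cpt-2* (-1.37), *cpt-1* (-1.67), *daf-22* (-1.75) and *acox-1.1* (-3.09) to *cpt-3* (-4.15), *hacd-1* (-4.78), *acs-2* (-5.59) and *cpt-5* (-8.32). *cpt-5* was near the limit of detection with auxin, at a mean of 0.0273 CPM.

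On the spike-in scale, where 2.68% of all genes were higher and 52.4% lower, 3 of the 47 were higher and 34 lower (5 and 34 without auxin replicate 4), and *atgl-1*, *mml-1*, *mxl-2* and *ncr-1* turned sign. *asp-1* (2.57), *fil-1* (2.48) and *lbp-9* (0.80) stayed called higher there. None of the 47 was called with auxin in the other 3 strains by the quasi-likelihood test or DESeq2, and 0 (germline degron strain), 2 (*Peft-3::TIR1*) and 3 (*Pgld-1::TIR1*) were past an unadjusted threshold of 0.05. Vacuolar ATPase subunits, which acidify the lysosome, showed 0 higher and 8 lower of 19 tested with auxin in the somatic degron strain, with or without auxin replicate 4, against 13.3% and 16.1% of all genes.

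**Figure D5:**
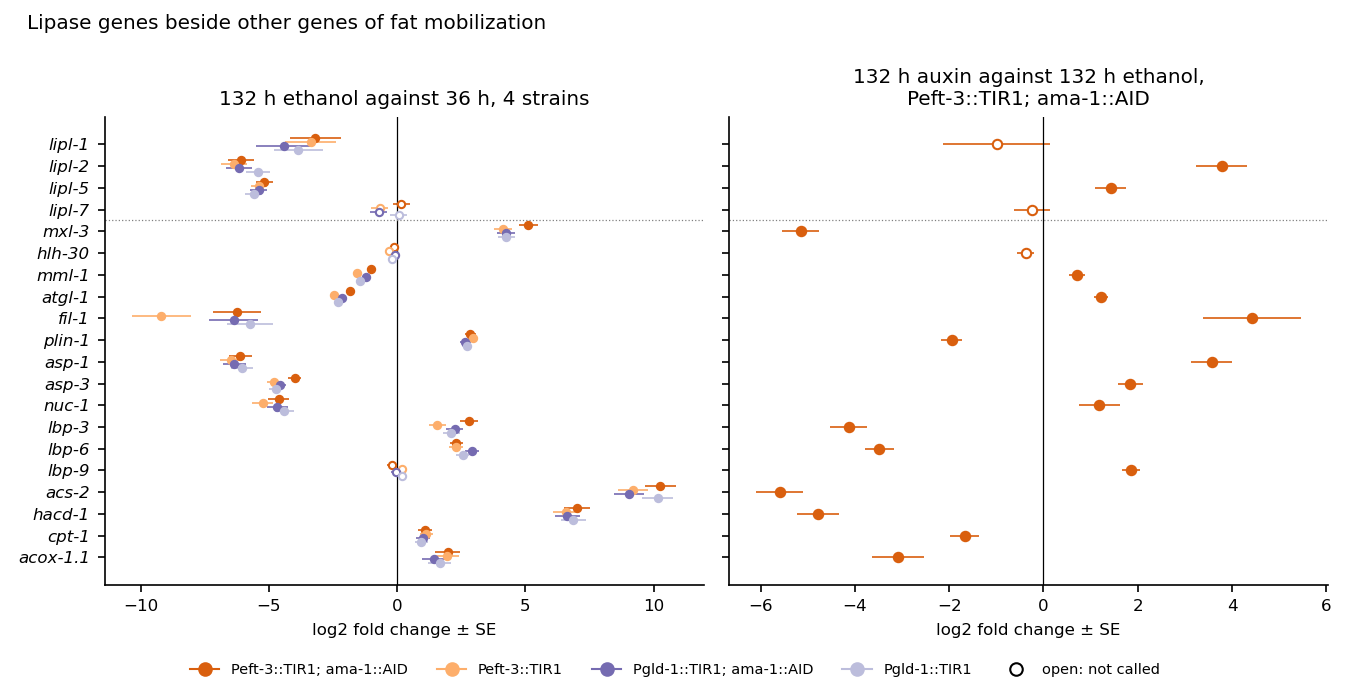
Log2 fold change with its standard error for lipl-1, lipl-2, lipl-5, lipl-7 and 16 other genes of fat mobilization, chosen for display after their values were seen, at 132 h with ethanol against 36 h in the 4 strains (left) and for auxin against ethanol at 132 h in the somatic degron strain (right). Open points were not called. mxl-3, plin-1, acs-2 and hacd-1 lie right of 0 with time and left of 0 with auxin (-5.15, -1.94, -5.59 and -4.78), and lipl-2, lipl-5, atgl-1, fil-1, asp-1 and asp-3 lie on the opposite sides, in 2 comparisons that share the ethanol libraries.

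Likeness of pattern was measured as the Pearson correlation of log2(CPM + 1) over the 48 libraries, which share strains, times and depth, and is given as a description. *lipl-5* was most like *cpz-2* (0.98), Y48G8AL.13 (0.98) and F54D5.3 (0.98), and *lipl-2* most like *endu-2* (0.97), W07G4.5 (0.97) and Y49E10.16 (0.97). *lipl-1* was most like *fbxa-185* (0.90), *asm-3* (0.90) and *aagr-1* (0.89). The nearest genes to the other members had lower values, 0.68 for *lipl-4* with T05E12.6, 0.63 for *lipl-8* with T27C10.9, 0.60 for *lipl-3* with F01G10.10, 0.60 for *lipl-6* with *hlh-6* and 0.59 for *lipl-7* with *sft-4*. Within the family, *lipl-2* and *lipl-5* had a correlation of 0.96, *lipl-1* and *lipl-5* of 0.86 and *lipl-1* and *lipl-2* of 0.83.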

How the data were processed

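The authors mapped read pairs of poly-A libraries to WS273 and ERCC sequences with Bowtie 1.2.2 and deposited raw counts per gene from HTSeq 0.11.2, 1 file for each of 48 libraries. Names, positions and exonic lengths came from WBcel235 annotation. The 15549 protein-coding genes over 10 counts in 4 or more libraries were tested with edgeR 4.0.16 (quasi-likelihood F test, upper quartile, W1 from RUVg with k = 1 over 62 spike-ins, 12 groups, Benjamini-Hochberg, 0.05) in R 4.3.3, with limma 3.58.1 and DESeq2 1.42.0. CPM, CPM per kb and counts per 100000 spike-in counts were computed from the deposited counts. Standard errors of log2 fold changes were derived as the size of the change over the square root of F. They are approximate where a change is near 0 or counts are few. Filter, normalization and W1 follow the study, which names the likelihood ratio test.

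Members, lists and alternatives were chosen with earlier results of these data known. Named genes are the 8 members, listed genes called with auxin in the somatic degron strain or in the same direction over time in all 4 strains, and the 3 genes most like each member by correlation. The likeness and the plot of values used pseudocounts of 1 and 0.1 CPM. Replicate numbers pair libraries by protocol, since plates of all strains were bleached in parallel. Deviations of libraries with the same number correlated at a mean of 0.048 over 264 pairs of groups and those with different numbers at -0.016. The 4 replicates per group differed by more than counting error (chi-square per degree of freedom 8.37 to 104 over 72 pairs). The fit was tested on simulated data without W1 in the model, so that test does not cover the use of W1.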

Additional observations from a re-analysis of the deposited data

Results flagged for a closer look

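The effect of auxin differed between the somatic degron strain and *Peft-3::TIR1* by 4.68 log2 units for *lipl-2* and by 1.71 for *lipl-5*, by the test of the difference itself. In 13 of 96 combinations of gene and group, 1 of 4 libraries lay far from the other 3 (by Dixon's criterion). Chance gives about 5 percent for normally distributed values, but 7 of the 13 had counts in 1 library beside 3 at 0, where the gap is the whole range, so the 13 are not set against chance. *lipl-2* was at 5.19 CPM (56 counts) in replicate 4 of *Pgld-1::TIR1* with ethanol, against 1.47 to 1.83 CPM in the others.

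The remaining 12 were at low counts. *lipl-3* was at 0.441 CPM in *Peft-3::TIR1* with auxin (replicate 4), 0.189 CPM in the germline degron strain with ethanol (replicate 4), 0.272 CPM in *Pgld-1::TIR1* with ethanol (replicate 1) and 1.39 CPM in *Pgld-1::TIR1* with auxin (replicate 2), each beside 3 libraries at 0. *lipl-4* was at 0.904 CPM in the germline degron strain at 36 h (replicate 1), 0.869 CPM in *Pgld-1::TIR1* at 36 h (replicate 2) and 6.27 CPM in *Pgld-1::TIR1* with ethanol (replicate 3, 34 counts), where the other 3 had at most 0.543 CPM. *lipl-6* was at 0 in *Pgld-1::TIR1* at 36 h (replicate 1), against 0.620 to 0.698 CPM. *lipl-8* was at 0.354 CPM in the somatic degron strain at 36 h (replicate 4), 1.45 CPM there with ethanol (replicate 1), 3.39 CPM in *Peft-3::TIR1* with auxin (replicate 1, 24 counts) and 0.272 CPM in *Pgld-1::TIR1* with ethanol (replicate 1).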

How the results depend on the processing

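No called value and no count of calls of the 8 lipases reversed under any alternative run, whereas some listed genes turned sign on the spike-in scale, as given above. Values that were not called did change sign. For auxin against ethanol in the somatic degron strain these were *lipl-3* (-1.62 to 2.25), *lipl-4* (-2.55 to 1.88), *lipl-6* (-2.59 to 0.69) and *lipl-8* (-0.33 to 5.49). Fitted only with the libraries compared and W1, the auxin comparison of the somatic degron strain called 0 members (*lipl-2* 4.12, adjusted p = 0.0567, and *lipl-5* 1.50, adjusted p = 0.332), and the difference between strains in the auxin effect called 1. Over all genes that fit of the auxin comparison called 457 higher and 450 lower. The same kind of fit gave -7.05 for *lipl-1* over time in the germline degron strain and left *lipl-4* against 36 h with auxin (adjusted p = 0.113) and *lipl-6* between strains (0.0689) uncalled. Leaving out each replicate gave 1 to 2 members for that difference in the auxin effect, and the spike-in scale without auxin replicate 4 gave 1. At a threshold of 0.01, the fit of 132 h with ethanol against 36 h in the somatic degron strain called 2 members. For the somatic degron strain against *Peft-3::TIR1* at 132 h with ethanol, 0 members were called at 0.01 and on the spike-in scale, 1 with DESeq2, the stricter filter, or the libraries compared alone with or without W1, and 0 to 1 when each replicate was left out. The other 211 counts of calls under alternatives stayed within 1.5 times, and of the values of single members 596 kept their call, 29 lost it and 5 gained it. W1 itself differed between the auxin and ethanol libraries of the somatic degron strain, as given above. It was also lower at 132 h with ethanol than at 36 h. Means were -0.100 against 0.112 in the somatic degron strain, -0.063 against 0.122 in the germline degron strain and -0.093 against 0.090 in *Peft-3::TIR1*. Each had an exact two-sided permutation p of 0.0286 (adjusted p = 0.0914 over 16 tests), against p = 0.571 in *Pgld-1::TIR1*. The cause of these changes in calls was not tested. With the replicate block, *lipl-2* with auxin was 3.55 (adjusted p = 1.78e-06) and *lipl-5* 1.39 (adjusted p = 0.000712), and the block changed no call of a member. Alternatives leaving out single libraries, and fitting the libraries compared without W1, were added after seeing the data. On the CPM scale they gave, for auxin against ethanol in the somatic degron strain, 3.51 to 4.10 for *lipl-2* and 1.19 to 2.07 for *lipl-5*. Depth limits *lipl-3*, *lipl-4*, *lipl-6* and *lipl-8*, where single libraries decide values.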
